A study of Mus musculus with 6 samples.

Results

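Interleukin-2 (IL-2) is the cytokine on which regulatory T cells (Tregs, CD4+ T cells that hold back immune responses and depend on the transcription factor Foxp3) rely for their survival. The mRNA of its receptor, of the kinases and transcription factors behind it and of their feedback genes was followed here over 9 genes: Il2ra, Il2rb, Il2rg, Jak1, Jak3, Stat5a, Stat5b, Cish and Socs2. They were taken by symbol from the 51361 genes of the count table. All 9 were present and all 9 passed the filter on low counts that left 16657 genes for testing.

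The 6 libraries fall into 3 groups of 2. The tMCAO brain group holds cells sorted as Tregs from the brain, 14 days after tMCAO (a mouse model of ischaemic stroke). In it, the middle cerebral artery was occluded for 60 min and reopened. Cells of the tMCAO blood group came from the blood at the same time after tMCAO, and those of the sham blood group from the blood of sham-operated mice. All 3 groups were 9-week-old male C57BL/6N mice that carry the transgene Tg(Foxp3-DTR/EGFP)23.2Spar, which places the diphtheria toxin receptor and green fluorescent protein under Foxp3 control. No toxin treatment is given in the labels. Sham brain was not analysed here, so the brain and blood of sham mice are not compared.

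Cells were sorted as CD4+CD25+Foxp3+, with 500 to 1000 cells per library. CD25 is the protein of Il2ra, so the gate itself asked for this receptor chain and the Il2ra level is not independent of the sort. Libraries held 14348179 to 24460894 counts. Whether libraries of the same group stem from separate mice or from pools is not in the labels, so every p-value below measures only the spread between these libraries.

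The defining markers of the sorted cells were not evenly present. Foxp3 was at 0.726 and 19.6 CPM (counts scaled to the effective library size) in tMCAO brain, at 0.538 and 5.18 CPM in tMCAO blood, and at 50.1 and 60.7 CPM in sham blood (library 1, then library 2 of each group, the order used throughout). Library 1 of tMCAO brain and library 1 of tMCAO blood thus had less than 1 CPM of the gene the cells were sorted on. A list of 17 T cell identity genes had counts for all 17 in every library and took 0.0271% and 0.135% of all counts in brain cells sorted after tMCAO, 0.0641% and 0.429% in blood cells sorted after tMCAO and 0.814% and 0.771% in sham blood cells. A list of 16 microglial markers took 2.48% and 2.11% for tMCAO brain, 0.517% and 0.318% for tMCAO blood and 0.0341% and 0.0579% for sham blood, with Sall1 at 0 in all 4 blood libraries. A list of 16 monocyte and macrophage markers took 3.39% and 1.37% in the tMCAO brain libraries, 3.68% and 1.38% in those of tMCAO blood and 0.738% and 0.583% in those of sham blood. Genes of red cells took 8.06e-05% and 0% in brain cells sorted after tMCAO, 0.107% and 3.80% in blood cells sorted after tMCAO and 15.1% and 16.4% in sham blood cells. In the same groups in turn, 11 CD8 T and NK cell markers took 0.0101% and 0.127%, 0.0286% and 0.0817%, and 0.0174% and 0.0306%. For 12 B cell markers these shares were 0.0159% and 1.08%, 0.0208% and 0.0986%, and 0.0921% and 0.118%. The part of these differences in the results below was not tested. In bulk libraries, fewer cells of a type and less RNA per cell cannot be told apart.

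IL-2 binds a receptor of 3 chains. The alpha chain (Il2ra, CD25) raises the affinity for IL-2 and does not signal by itself, the beta chain (Il2rb) is shared with the IL-15 receptor, and the common gamma chain (Il2rg) is shared by the receptors for IL-2, IL-4, IL-7, IL-9, IL-15 and IL-21. JAK1 is bound to the beta chain and JAK3 to the gamma chain, and together they phosphorylate STAT5A and STAT5B, which move to the nucleus and bind DNA at sites of the form TTCNNNGAA. STAT5 raises Cish and Socs2, whose proteins (CIS and SOCS2) in turn dampen cytokine receptor signalling, and in Tregs it helps to keep Foxp3 and Il2ra expressed.

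Sequences at the start of 3 members are shown because Il2rg and Jak3 are the members whose levels differed past the threshold between groups and Cish is the textbook STAT5 target among the 9. They come from RefSeq (GRCm38.p6), which had an entry for 7 of the 9 genes, with 9 windows in all of 250 bases before and 50 bases after an annotated start. TTCNNNGAA, which reads the same on both strands, was searched in each window. It was found in 1 of the 9 windows, that of Cish, which held 2 matches. They are set in capitals in the 30 bases at chr9:107296654-107296683 (+ strand) and begin at bases 1 and 12 counted from the RefSeq start. Of 32851 such windows over all genes, 8.30% held at least 1 match and 0.457% held at least 2. The Il2rg sequence is chrX:101268256-101268505 (- strand) and the Jak3 sequence is chr8:71676133-71676295 (+ strand), each the annotated bases before the first exon, with no match and so no capitals. A match is a run of letters and no measured binding site.
Cish: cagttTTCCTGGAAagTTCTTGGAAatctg
Il2rg: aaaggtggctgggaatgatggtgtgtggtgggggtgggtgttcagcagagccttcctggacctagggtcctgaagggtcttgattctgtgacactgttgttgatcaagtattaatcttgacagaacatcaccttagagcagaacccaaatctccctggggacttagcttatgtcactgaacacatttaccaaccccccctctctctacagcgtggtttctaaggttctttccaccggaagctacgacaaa
Jak3: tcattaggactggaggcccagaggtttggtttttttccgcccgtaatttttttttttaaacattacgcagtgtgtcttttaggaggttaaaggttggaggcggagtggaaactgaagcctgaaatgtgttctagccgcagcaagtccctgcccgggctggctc

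The first question is how the receptor and its pathway compare between cells sorted as Tregs from injured brain and from blood after tMCAO. No member differed past the threshold between tMCAO brain and tMCAO blood (0 of 9 by edgeR's quasi-likelihood test at an adjusted p of 0.05, where 4.9% of all genes passed, 3.53% higher and 1.37% lower). At an unadjusted p under 0.05 there was 1 member, Jak3, which DESeq2 also called and limma-voom did not. The second question is how both groups compare with sham blood. Because tMCAO brain differs from sham blood in both tissue and operation, that comparison cannot tell these apart. The words rose and fell below give only the direction of a difference between groups. All 9 fitted changes were negative in each of these comparisons, with a median log2 change of -1.11 in tMCAO brain and -1.23 in tMCAO blood, beside 0.09 and 0.11 over all genes tested. The same medians were -3.19 and -1.88 for the 17 T cell identity genes, all of them below 0. For 12 Treg core genes (Foxp3 among them, the members left out) they were -2.47 and -2.13, with 11 and 10 of 12 below 0. In tMCAO brain 1 of 9 members was called lower (Il2rg), where 2.62% of all genes were called lower and 8.01% higher. In tMCAO blood 2 of 9 were called lower (Il2rg and Jak3), where 3.15% of all genes were called lower and 4.33% higher. The 3 comparisons share libraries in pairs, so they do not repeat each other independently.

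**Figure D1:**
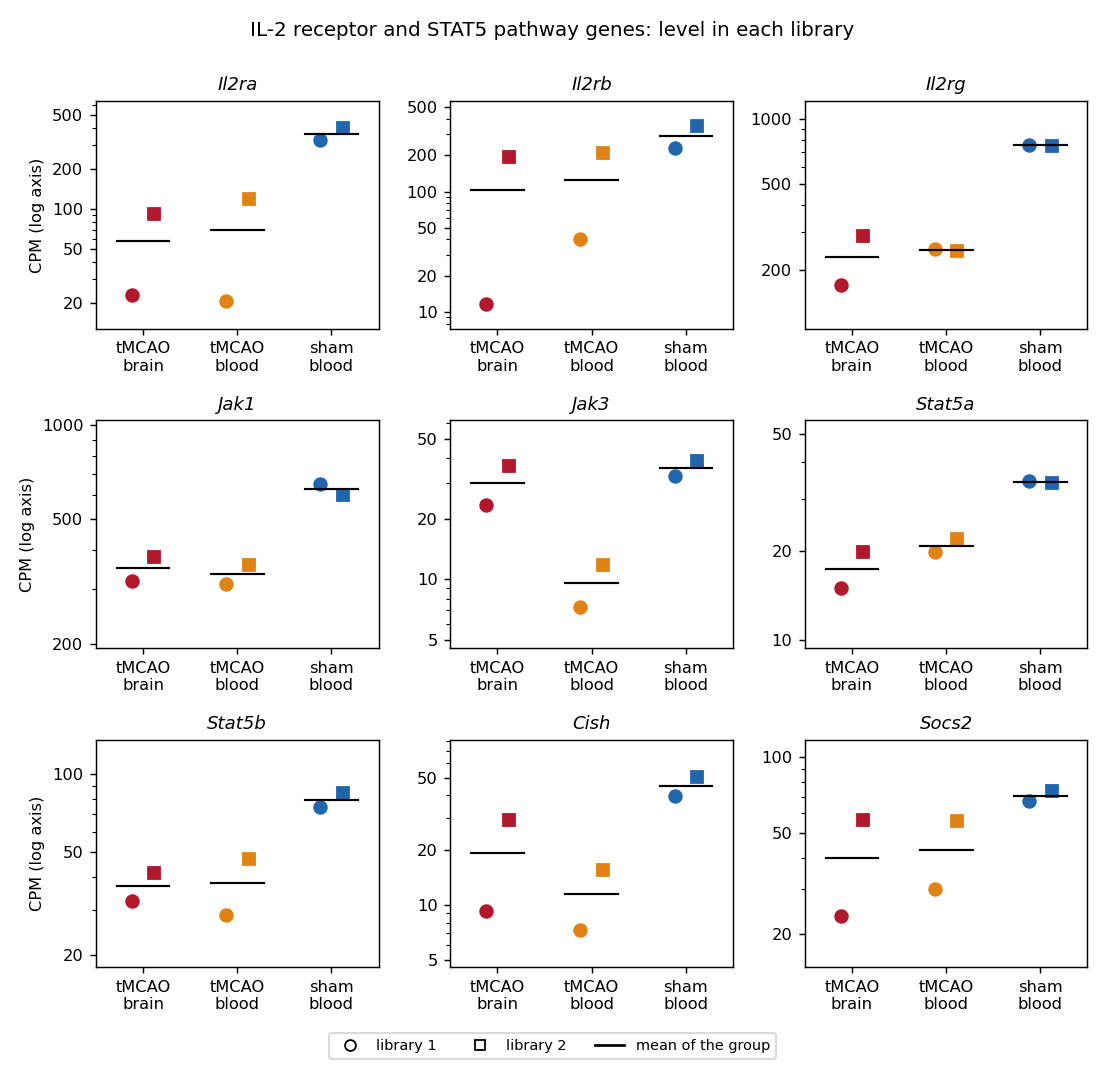
Level of each of the 9 genes in each library (vertical axis, CPM on a log scale), with tMCAO brain left, tMCAO blood in the middle and sham blood right; circles are library 1, squares library 2, and lines group means. Sham blood points lie above all tMCAO points for 8 of the 9 genes, the exception being Jak3, where tMCAO brain library 2 at 36.6 CPM lies between the sham libraries.

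Il2ra (chromosome 2, 11642807 to 11693193, + strand, GRCm38) encodes the alpha chain. It stood at 23.0 and 92.1 CPM for tMCAO brain, 20.5 and 118 CPM for tMCAO blood and 329 and 399 CPM for sham blood. Both tMCAO groups lay wholly below sham blood, and within each of them library 1 was several times lower than library 2. The log2 change was -2.66 ± 0.96 (SE) for tMCAO brain against sham blood (edgeR adjusted p = 0.125). For tMCAO blood it was -2.39 ± 0.95 (adjusted p = 0.158). These were the fitted changes of greatest size among the members in those comparisons. Neither passed in the main edgeR fit (all 6 libraries, filter on low counts, no covariates), and DESeq2 called both. EdgeR also called both without that filter, and with the replicate number as a covariate. In tMCAO brain, set against tMCAO blood, it was -0.27 ± 0.91 (adjusted p = 0.871). Without library 1 of both tMCAO groups, Il2ra was called lower in tMCAO brain (log2 -2.01, adjusted p = 0.000581) and in tMCAO blood (log2 -1.58, adjusted p = 0.00389), each against sham blood, in a fit that has 1 library in each tMCAO group and assumes that it varies as the sham libraries do.

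Il2rb (chromosome 15, 78479256 to 78495271, - strand), the signalling beta chain, was the member with the widest spread. Its levels were 11.6 and 194 CPM in the tMCAO brain libraries, 40 and 209 CPM in those of tMCAO blood and 230.3 and 353 CPM in those of sham blood. The groups did not overlap with sham blood, but library 2 of each tMCAO group came close to sham library 1, and the 2 tMCAO brain libraries differed 16.7-fold. The share of CD8 T and NK cell markers given above was also higher in library 2 than in library 1 of each group. Its part in the Il2rb level was not tested. With all 6 libraries and the filter on low counts, edgeR called no comparison: the log2 change was -1.50 ± 1.26 in tMCAO brain (adjusted p = 0.477) and -1.23 ± 1.25 in tMCAO blood (adjusted p = 0.544), each against sham blood, and -0.27 ± 1.24 with tMCAO brain set against tMCAO blood (adjusted p = 0.907). Without the filter on low counts, edgeR called Il2rb lower than sham blood in tMCAO brain (adjusted p = 0.00299) and in tMCAO blood (adjusted p = 0.0257).

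Il2rg (chromosome X, 101264378 to 101268255, - strand), the common gamma chain, fell in both tMCAO groups. It was at 170.4 and 287 CPM in brain cells sorted after tMCAO, 249 and 244 CPM in blood cells sorted after tMCAO and 756 and 749.7 CPM in sham blood cells, which gives 229 ± 82.3, 246 ± 3.92 and 753 ± 4.66 CPM (mean ± SD, n = 2 each). The sham libraries and the tMCAO blood libraries each lay close together, and even the higher tMCAO brain library was far below both sham libraries. It was 3.29-fold lower in tMCAO brain (log2 -1.72 ± 0.35, edgeR adjusted p = 0.0357) and 3.05-fold lower in tMCAO blood (log2 -1.61 ± 0.35, adjusted p = 0.0495), each against sham blood. In tMCAO brain, set against tMCAO blood, the log2 change was -0.11 ± 0.35 (adjusted p = 0.864).

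Both Il2rg calls rest on few libraries. Without sham library 1 or without sham library 2, no gene of the table passed against sham blood. Without tMCAO blood library 1, none passed in tMCAO blood against sham blood. Failing in those fits is thus not particular to Il2rg. The call in tMCAO brain did not pass without tMCAO brain library 1 (adjusted p = 0.1098), sham library 1 (0.182) or sham library 2 (0.209), and the call in tMCAO blood did not pass without any one of its 4 libraries (0.0963 to 0.305), while the fitted changes stayed between -2.14 and -1.40 in tMCAO brain and between -1.64 and -1.60 in tMCAO blood. Without library 1 of both tMCAO groups they passed again, at -1.42 (adjusted p = 0.00311) and -1.58 (adjusted p = 0.00343). Of the Il2rg exon bases, 30.5% (728) are also annotated to Gm20489 on the same strand, which had 0 counts in every library, so reads there may have been counted for neither gene.

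Per length of exon, the 3 chains can be set beside each other. In CPM per kb of exon, Il2rg was at 71.4 and 120.2 for tMCAO brain, 104.4 and 102.1 for tMCAO blood and 316.8 and 314.1 for sham blood. Il2ra was at 4.03 and 16.1, 3.59 and 20.7, and 57.5 and 69.8 CPM per kb in the same groups, and Il2rb at 2.71 and 45.3, 9.33 and 48.8, and 53.7 and 82.4 CPM per kb. Il2rg was the highest of the 3 in all 6 libraries, while Il2ra and Il2rb changed places between libraries: Il2rb was the higher in both library 2 of the tMCAO groups, in tMCAO blood library 1 and in sham library 2, and Il2ra in the other 2 libraries.

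Jak1 (chromosome 4, 101152367 to 101265282, - strand) encodes the kinase on the beta chain. It had 318 and 380.1 CPM in the tMCAO brain libraries, 309.7 and 358 CPM in those of tMCAO blood and 648 and 599.9 CPM in those of sham blood. The spread within groups was small and both tMCAO groups lay below sham blood, at a log2 change of -0.84 ± 0.29 in tMCAO brain (edgeR adjusted p = 0.117) and -0.90 ± 0.29 in tMCAO blood (adjusted p = 0.106), neither past the threshold in edgeR, while DESeq2 called both. The log2 change of tMCAO brain, set against tMCAO blood, was 0.07 ± 0.29 (adjusted p = 0.907).

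Jak3 (chromosome 8, 71676296 to 71690575, + strand), the kinase on the gamma chain and one largely restricted to blood cells, was the only member whose tMCAO brain libraries overlapped with those of sham blood. Its levels were 23.4 and 36.6 CPM in brain cells sorted after tMCAO, 7.27 and 11.8 CPM in blood cells sorted after tMCAO and 32.7 and 38.5 CPM in sham blood cells. Both tMCAO blood libraries lay below all others. It fell in tMCAO blood against sham blood, 3.73-fold (9.54 ± 3.21 CPM in tMCAO blood and 35.6 ± 4.07 CPM in sham blood, mean ± SD, n = 2 each; log2 -1.90 ± 0.39, edgeR adjusted p = 0.0429). The call did not pass without tMCAO blood library 1, sham library 1 or sham library 2, but no gene of the table passed in this comparison in those fits. With any 1 library left out, the fitted log2 change stayed between -2.29 and -1.60. Without library 1 of both tMCAO groups the log2 change was -1.55.

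In tMCAO brain, Jak3 was higher than in tMCAO blood by a fitted log2 change of 1.65 ± 0.39 that did not pass in edgeR (adjusted p = 0.0626). Of 15 alternatives, 4 called it, among them DESeq2 (adjusted p = 0.00308) and edgeR without the filter on low counts (0.00304). Those 2 settings called 3451 and 3598 genes in this comparison, against 816 in the main fit. It did not pass with limma-voom (0.0527), the stricter filter (0.0505) or only the 2 groups compared (0.143). With any 1 library left out it did not pass either, at a log2 change of 1.30 to 2.03. Without library 1 of both groups the log2 change was 1.56. Against sham blood, tMCAO brain was at -0.25 ± 0.37 (adjusted p = 0.707). Jak3 was the 1 member of 9 with tMCAO brain wholly above tMCAO blood, as 31.4% of all genes tested were, and Stat5a the 1 wholly below, as 25.9% were. The microglial share given above was also higher in both tMCAO brain libraries than in any blood library, and its part in the Jak3 level was not tested. Of the Jak3 exon bases, 7.55% overlap Insl3, which had 0 to 10 counts per library.

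**Figure D2:**
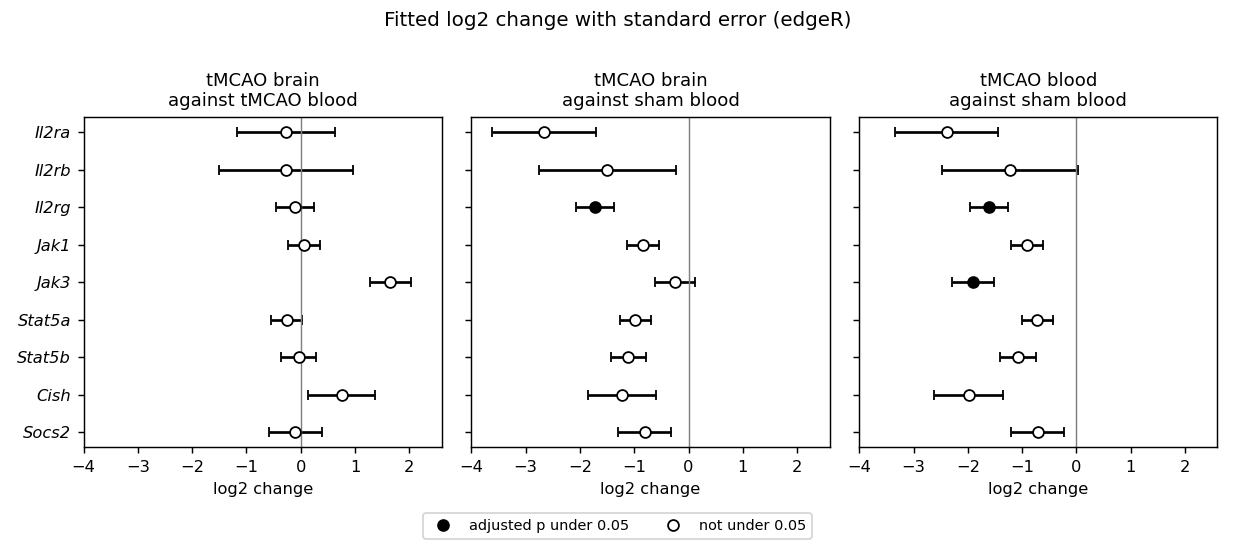
Fitted log2 change of each of the 9 genes (points) with its standard error (bars) in the 3 comparisons, tMCAO brain against tMCAO blood, tMCAO brain against sham blood and tMCAO blood against sham blood; filled points passed edgeR's test at an adjusted p of 0.05. The 3 filled points are Il2rg at -1.72 and -1.61 and Jak3 at -1.90, all against sham blood.

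The 2 STAT5 genes are neighbours on chromosome 11 and code for close paralogs, so reads from stretches they share may have been split or lost. Of the Stat5a exon bases, 1.01% (72) overlap Stat3 on the other strand, which had 2291 to 6773 counts per library. Stat5a itself had 248 to 541. Stat5a (100859351 to 100885169, + strand) had 15.0 and 19.85 CPM for tMCAO brain, 19.87 and 21.9 CPM for tMCAO blood and 34.7 and 34.0 CPM for sham blood. Stat5b (100780731 to 100850724, - strand) had 32.4 and 41.4 CPM in the tMCAO brain libraries, 28.7 and 47.0 CPM in those of tMCAO blood and 74.6 and 84.7 CPM in those of sham blood. Both genes were lower in every tMCAO library than in either sham library, and tMCAO brain and tMCAO blood were close for both, without overlap for Stat5a and with overlap for Stat5b.

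Set against sham blood, the fitted change of Stat5a was -0.98 ± 0.29 in tMCAO brain (edgeR adjusted p = 0.0778) and -0.72 ± 0.29 in tMCAO blood (adjusted p = 0.157). That of Stat5b was -1.11 ± 0.33 (adjusted p = 0.0787) and -1.07 ± 0.33 (adjusted p = 0.0917). None passed in the main edgeR fit, while Stat5b in tMCAO brain passed in edgeR without the filter on low counts. DESeq2 called Stat5a and Stat5b lower in tMCAO brain and Stat5b lower in tMCAO blood, and without library 1 of both tMCAO groups edgeR called Stat5b in tMCAO brain (log2 -0.97, adjusted p = 0.0229). In tMCAO brain, set against tMCAO blood, Stat5a was at -0.26 ± 0.28 (adjusted p = 0.580) and Stat5b at -0.04 ± 0.32 (adjusted p = 0.955). Per kb of exon, Stat5b was the higher of the pair in all 6 libraries, with 5.84 and 7.48 CPM per kb in tMCAO brain against 13.5 and 15.3 CPM per kb in sham blood, and Stat5a with 2.10 and 2.78 CPM per kb against 4.87 and 4.76 CPM per kb.

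Cish and Socs2 are the feedback genes, both known to be raised by STAT5. Cish (chromosome 9, 107296026 to 107302784, + strand), which carries the 2 TTCNNNGAA matches shown above, stood at 9.26 and 29.2 CPM in brain cells sorted after tMCAO, 7.27 and 15.6 CPM in blood cells sorted after tMCAO and 39.6 and 50.6 CPM in sham blood cells. Both tMCAO groups lay below sham blood and overlapped each other. The log2 change was -1.23 ± 0.62 in tMCAO brain (edgeR adjusted p = 0.242) and -1.98 ± 0.64 in tMCAO blood (adjusted p = 0.102), each against sham blood, and 0.75 ± 0.62 in tMCAO brain when set against tMCAO blood (adjusted p = 0.459). DESeq2 called it lower in tMCAO blood, and so did edgeR without library 1 of both tMCAO groups (log2 -1.49, adjusted p = 0.0112). On the other strand, Gm17041 and Gm17040 overlap 7.46% and 4.07% of the Cish exon bases and had 0 to 6 counts per library.

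Socs2 (chromosome 10, 95385362 to 95417180, - strand), a second STAT5-raised inhibitor, best known for limiting growth hormone signalling, had 23.5 and 56.7 CPM for tMCAO brain, 29.99 and 55.9 CPM for tMCAO blood and 67.3 and 73.5 CPM for sham blood. The groups did not overlap with sham blood, yet library 2 of either tMCAO group was close to it. No comparison passed with any tool or setting tried: -0.81 ± 0.49 (edgeR adjusted p = 0.325) in tMCAO brain and -0.71 ± 0.49 (adjusted p = 0.369) in tMCAO blood, each against sham blood, and -0.10 ± 0.49 (adjusted p = 0.918) between the 2 tMCAO groups.

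Counted without a test, 8 of 9 members lay wholly below sham blood in tMCAO brain and 9 of 9 in tMCAO blood, where 29.7% and 30.4% of all genes tested did. Of the 17 T cell identity genes, 17 and 16 did. None of the members lay wholly above sham blood, where 34.9% of all genes did in tMCAO brain and 33.6% in tMCAO blood. Without library 1 of both tMCAO groups, the fit has 1 library in each tMCAO group and 1 residual degree of freedom in place of 3. It called more genes over the whole table in each comparison than the fit of all 6 libraries. Member calls from it therefore say little about the members in particular.

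The members did not vary as one between the 2 libraries of a group. Library 2 was above library 1 by a log2 ratio of 2.00 in tMCAO brain and 2.53 in tMCAO blood for Il2ra, by 4.06 and 2.39 for Il2rb and by 1.66 and 1.10 for Cish. For Il2rg the same ratios were 0.75 and -0.03, and for Jak1 they were 0.26 and 0.21. Over the 17 T cell identity genes the median ratio was 2.26 for tMCAO brain, 2.48 for tMCAO blood and -0.04 for sham blood. Il2ra had a ratio near the T cell identity median in both tMCAO groups, whereas Jak1 in both groups, and Il2rg in tMCAO blood, were nearly level between libraries whose T cell identity counts differed several-fold. In sham blood no member exceeded a ratio of 0.62.

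**Figure D3:**
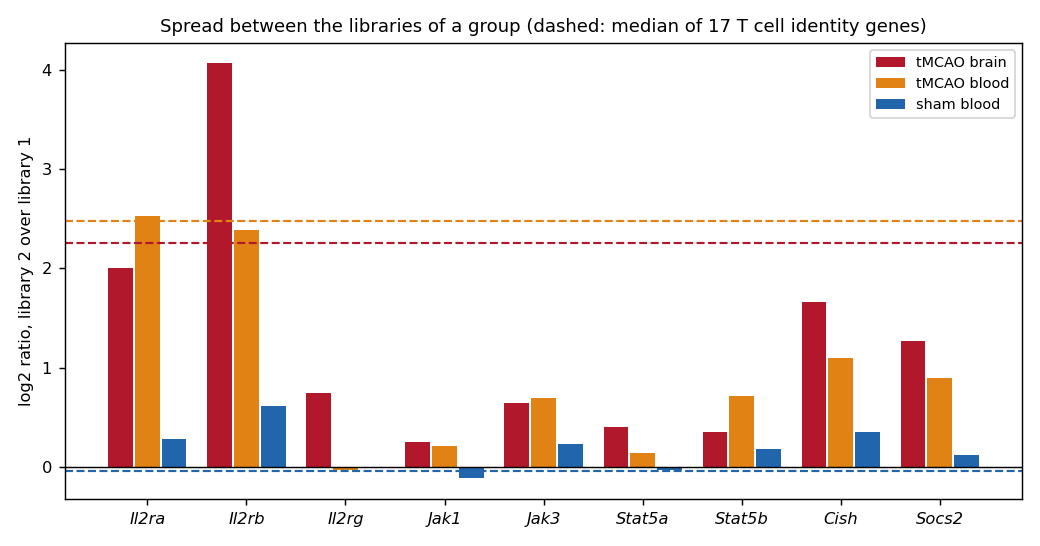
Bars give the log2 ratio of library 2 to library 1 (vertical axis) within each group for each of the 9 genes, and dashed lines in the group's colour the median of the 17 T cell identity genes. Il2ra lies near the line in both tMCAO groups, at 2.00 and 2.53, and Jak1 lies near 0, at 0.26 and 0.21.

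The picture depended on what the levels were set against. Per 1000 counts of the T cell identity list, Il2ra was at 70.7 and 68.5 in the tMCAO brain libraries, 30.8 and 33.2 in those of tMCAO blood and 41.3 and 51.2 in those of sham blood. On this scale the 2 libraries of each group were close to each other, tMCAO brain was above both blood groups, and tMCAO blood was below sham blood. Il2rb was at 35.7 and 144.6 in brain cells sorted after tMCAO, 60.0 and 58.7 in blood cells sorted after tMCAO and 29.0 and 45.4 in sham blood cells, so that tMCAO brain overlapped with sham blood and lay on both sides of tMCAO blood.

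Il2rg on the same scale was at 524 and 213.5 for tMCAO brain, 374 and 68.4 for tMCAO blood and 95.1 and 96.3 for sham blood. Jak1 was at 979.7 and 283 in the tMCAO brain libraries, 464 and 100.5 in those of tMCAO blood and 81.5 and 77.1 in those of sham blood. For these genes tMCAO brain was now above sham blood in both libraries and library 1 was the higher within each tMCAO group, the opposite of their order in CPM for tMCAO brain against sham blood. Jak3, Stat5a, Stat5b, Cish and Socs2 likewise had both tMCAO brain libraries above both sham libraries on this scale, with Jak3 at 72.0 and 27.2 in brain cells sorted after tMCAO, 10.9 and 3.31 in blood cells sorted after tMCAO and 4.12 and 4.95 in sham blood cells.

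With the edgeR fit scaled to the T cell identity genes in place of all genes, no member passed in any comparison (0 of 9 in each, and 1 at an unadjusted p under 0.05, in tMCAO brain against sham blood), and the median of all genes tested moved, against sham blood, by 3.87 on the log2 scale in tMCAO brain and by 2.78 in tMCAO blood. The fitted change of Il2rg became 1.95 in tMCAO brain (adjusted p = 0.287) and 1.21 in tMCAO blood (adjusted p = 0.541), and that of Jak3 in tMCAO blood became 0.64 (adjusted p = 0.713), so each of the 3 calls changed sign with the scaling. Such a scaling moves all genes of a comparison by about the same amount, so it hardly alters where Il2rg lies relative to the median gene. Il2ra in tMCAO blood against sham blood was the single fitted change against sham blood that stayed negative (-0.53, adjusted p = 0.770). How much of each member's RNA came from T cells cannot be told apart from the other cells' share in these libraries.

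**Figure D4:**
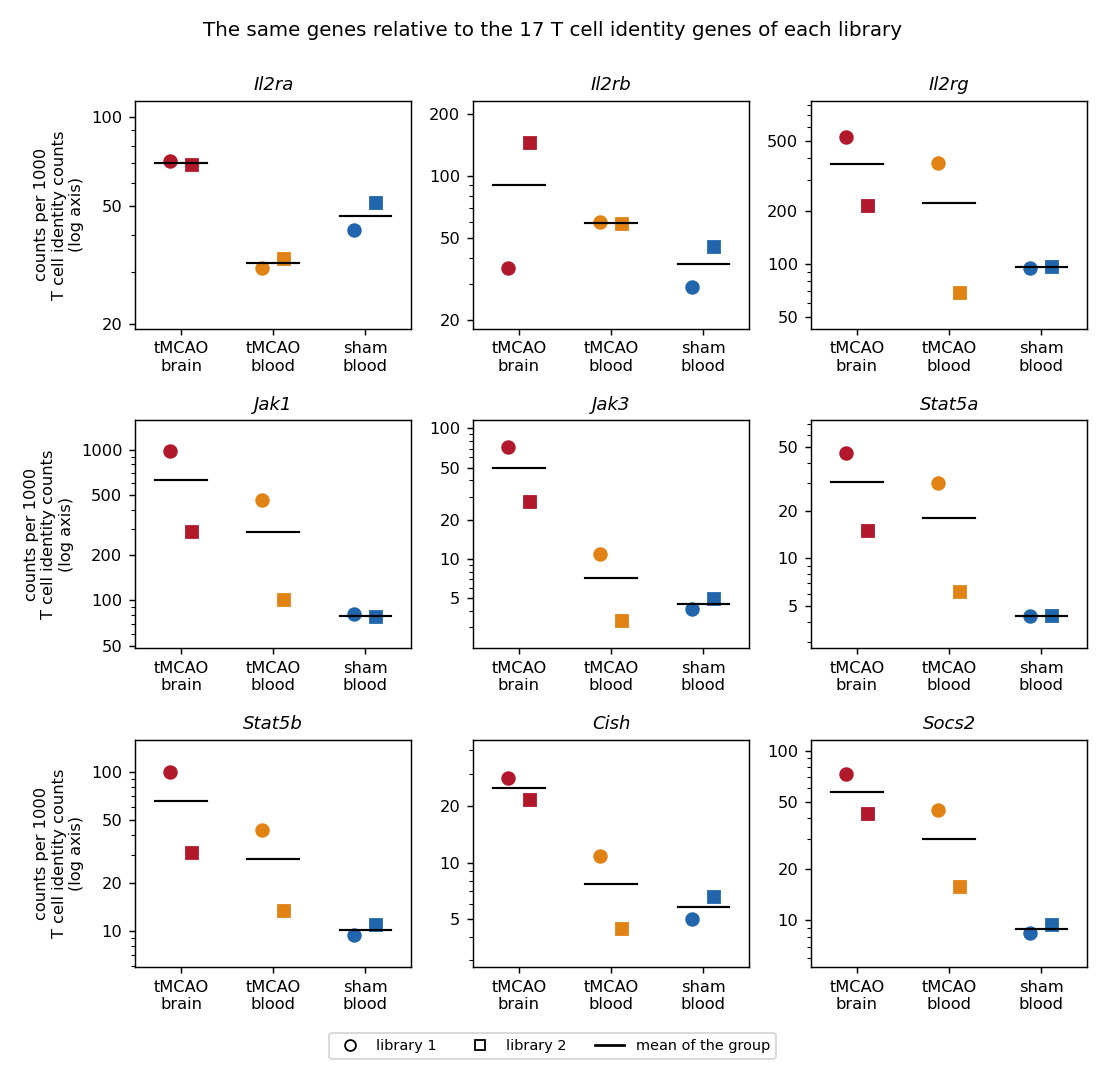
Counts of each of the 9 genes per 1000 counts of the 17 T cell identity genes in each library (vertical axis, log scale), with tMCAO brain left, tMCAO blood in the middle and sham blood right; circles are library 1, squares library 2, and lines group means. Il2ra libraries lie close together within groups, at 70.7 and 68.5 in tMCAO brain, while Jak1 spans 979.7 and 283 there.

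Other genes with the pattern of a member were ranked by the root mean square difference in log2 CPM over the 6 libraries, after centring each gene, among 6452 genes of at least 20 CPM on average. Nearest to Il2ra were Rab37 (0.223), Gimap6 (0.237), Septin1 (0.240), Sigirr (0.287) and Lck (0.296, the kinase at the T cell receptor's co-receptors). Lck had 43.1 and 237 CPM for tMCAO brain, 59.6 and 326 CPM for tMCAO blood and 1147 and 1342 CPM for sham blood. Nearest to Cish were Akna (0.165), Fam107b (0.169), Cd69 (0.177, an early activation marker of lymphocytes), Tspan13 (0.178) and Cytip (0.187). Among the members themselves, Cish was the closest to Il2ra, at 0.758, and Il2rg the closest to Cish, at 0.534. They ranked only 129 and 104 among the 6452 genes, so many other genes lay nearer. These likenesses are descriptions over 6 libraries and share the library effects shown above.

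The counts in the 5 lists below stand beside those over all 16657 genes tested. In tMCAO brain against tMCAO blood, tMCAO brain against sham blood and tMCAO blood against sham blood, edgeR called 4.9%, 10.6% and 7.48% of these. DESeq2 called 3451, 4007 and 3804 genes, and limma-voom 1446, 1890 and 1146. In edgeR, 4671, 5034 and 4938 had an unadjusted p under 0.05. Beyond the 9 members, the ligands and private receptor chains of the gamma chain family were mostly not called. Of 11 genes, 9 were tested (Il9 and Il21 were not), and edgeR called 0 in tMCAO brain against tMCAO blood (4 at an unadjusted p under 0.05, 4 with DESeq2, 0 with limma-voom), 1 in tMCAO brain against sham blood (5 unadjusted, 4 with DESeq2, 0 with limma-voom) and 0 in tMCAO blood against sham blood (3 unadjusted, 3 with DESeq2, 0 with limma-voom). The call was Il15, a cytokine presented by myeloid and other cells to the IL-2 receptor beta chain, which rose to 98.4 and 28.6 CPM in tMCAO brain, against 7.12 and 3.45 CPM in sham blood (log2 3.58 ± 0.69, edgeR adjusted p = 0.0299). It had 12.9 and 11.9 CPM in tMCAO blood. The call did not pass with limma-voom (adjusted p = 0.0540). Nor did it pass without tMCAO brain library 1, sham library 1 or sham library 2. Without sham library 1 or without sham library 2, however, no gene of the table passed in this comparison. The microglial share given above was also higher in tMCAO brain than in sham blood, its part in the Il15 level not tested. Il2 itself was scarce, at 1.33 and 4.29 CPM in the tMCAO brain libraries, 0.269 and 1.15 CPM in those of tMCAO blood and 0.642 and 1.27 CPM in those of sham blood, with no comparison passing.

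The other JAK and STAT genes (Jak2, Tyk2, Stat2, Stat3, Stat4 and Stat6) gave no edgeR call among 6 in any comparison. In tMCAO brain against tMCAO blood 1 of them, Stat3, had an unadjusted p under 0.05 and was called by DESeq2, and against sham blood none was under 0.05 or called by DESeq2 or limma-voom. Stat3, used by receptors of the IL-6 family, had 217 and 277 CPM in brain cells sorted after tMCAO, 138 and 114 CPM in blood cells sorted after tMCAO and 149.9 and 184 CPM in sham blood cells. Stat6, used by the IL-4 receptor, had 156 and 131 CPM for tMCAO brain, 152 and 116 CPM for tMCAO blood and 128 and 154 CPM for sham blood, with all groups overlapping. The list median was 0.38 for tMCAO brain against sham blood, where the 9 members had -1.11. The T cell identity genes had -3.19 there, so a median below 0 was not particular to the members.

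Among 12 other negative regulators of cytokine signalling, edgeR called 1 in each comparison, each higher. DESeq2 called 3 higher and 1 lower in tMCAO brain against tMCAO blood and 3 higher against sham blood. In tMCAO blood against sham blood, DESeq2 called 1 higher and 4 lower and limma-voom 1 higher and 1 lower. Socs3, the inhibitor raised by STAT3, rose to 91.1 and 135 CPM in tMCAO brain, against 18.0 and 10.9 CPM in tMCAO blood (log2 2.96 ± 0.52, edgeR adjusted p = 0.0372), and had 31.8 and 74.8 CPM in sham blood. That call did not pass without any one of the 6 libraries (adjusted p of 0.0688 to 0.124). Sh2b3, an adaptor that restrains JAK2-linked receptors, rose to 74.4 and 75.9 CPM in tMCAO brain and 91.4 and 84.5 CPM in tMCAO blood, against 37.9 and 35.5 CPM in sham blood (log2 1.03 ± 0.23, adjusted p = 0.0429, and 1.26 ± 0.23, adjusted p = 0.0378). Its call in tMCAO brain did not pass without any one of the tMCAO brain or sham libraries. Nor did its call in tMCAO blood pass without any one of the 6 libraries. No gene of the table passed against sham blood without sham library 1 or 2, nor in tMCAO blood without tMCAO blood library 1. Socs1, a STAT5-raised inhibitor of JAKs, was not called by edgeR with all 6 libraries and the filter on low counts, and was called lower in tMCAO blood against sham blood by DESeq2. Of 15 alternatives, 4 called it in that comparison and 2 in tMCAO brain against sham blood. It had 22.7 and 19.6 CPM in the tMCAO brain libraries, 11.2 and 21.6 CPM in those of tMCAO blood and 42.2 and 45.0 CPM in those of sham blood.

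Of 16 genes known to be raised by STAT5 in lymphocytes, edgeR called 1 higher in tMCAO brain against tMCAO blood, 2 higher and 1 lower in tMCAO brain against sham blood, and 1 higher in tMCAO blood against sham blood. Other tools called more of them lower against sham blood: DESeq2 called 3 higher and 5 lower in tMCAO brain and 2 higher and 7 lower in tMCAO blood, and limma-voom 2 higher and 2 lower in tMCAO brain and 1 higher and 2 lower in tMCAO blood. Osm, a cytokine of the IL-6 family made by myeloid and T cells, rose to 316 and 183 CPM in tMCAO brain, against 14.3 and 9.82 CPM in tMCAO blood (log2 4.37 ± 0.44, edgeR adjusted p = 0.0167) and 19.6 and 13.7 CPM in sham blood (log2 3.90 ± 0.43, adjusted p = 0.0101). The first of these calls did not pass without tMCAO blood library 2 or either sham library (adjusted p of 0.0564 to 0.0600). Id2, an inhibitor of E proteins, was at 1074 and 1578 CPM in tMCAO brain and 1311 and 1098 CPM in tMCAO blood, against 198 and 182 CPM in sham blood, and rose in both (log2 2.80 ± 0.37, adjusted p = 0.0142, and 2.67 ± 0.37, adjusted p = 0.0313). Ccnd3, a cyclin of the G1 phase, fell to 42.8 and 76.3 CPM in tMCAO brain, against 164 and 220 CPM in sham blood (log2 -1.69 ± 0.37, adjusted p = 0.0410), with a sign that turned when scaled to T cell identity genes (log2 1.95). Members of this list thus passed in both directions, and its median log2 change against sham blood was -0.52 in tMCAO brain and -0.81 in tMCAO blood, beside 0.09 and 0.11 over all genes.

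The receptor's adaptors and its PI3K and MAPK branches (15 genes) gave 0 edgeR calls in tMCAO brain against tMCAO blood (5 unadjusted, 4 with DESeq2, 3 with limma-voom). They gave 3 higher in tMCAO brain against sham blood, where 8.01% of all genes were called higher. In tMCAO blood against sham blood 4 were higher, where 4.33% of all genes were, and none was lower in either. Against sham blood, DESeq2 called 3 higher and 2 lower in tMCAO brain and 6 higher and 2 lower in tMCAO blood, and limma-voom 3 higher in tMCAO brain and 4 higher and 1 lower in tMCAO blood. Mapk3 (the kinase ERK1) rose to 60.2 and 75.9 CPM in tMCAO brain and 78.7 and 75.3 CPM in tMCAO blood, against 16.6 and 15.4 CPM in sham blood (log2 2.09 ± 0.26, edgeR adjusted p = 0.0125, and 2.26 ± 0.26, adjusted p = 0.0313). Gab2, a scaffold for PI3K, rose to 51.6 and 24.5 CPM in tMCAO brain and 34.8 and 19.2 CPM in tMCAO blood, against 2.76 and 3.59 CPM in sham blood (log2 3.58 ± 0.54 and 3.09 ± 0.52, adjusted p = 0.0169 and 0.0350). Grb2, an adaptor to the RAS pathway, rose in both groups (log2 1.40 ± 0.31 and 1.65 ± 0.32, adjusted p = 0.0429 and 0.0395), and Akt1, a kinase downstream of PI3K, rose in tMCAO blood (log2 1.87 ± 0.30, adjusted p = 0.0319). Of the calls against sham blood in these last 2 lists, none passed without sham library 1 or without sham library 2. None of those in tMCAO blood passed without tMCAO blood library 1. No gene of the table passed in those fits for the comparison concerned. The monocyte and macrophage share was also higher in all 4 tMCAO libraries than in both sham libraries, and its part in these rises was not tested.

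**Figure D5:**
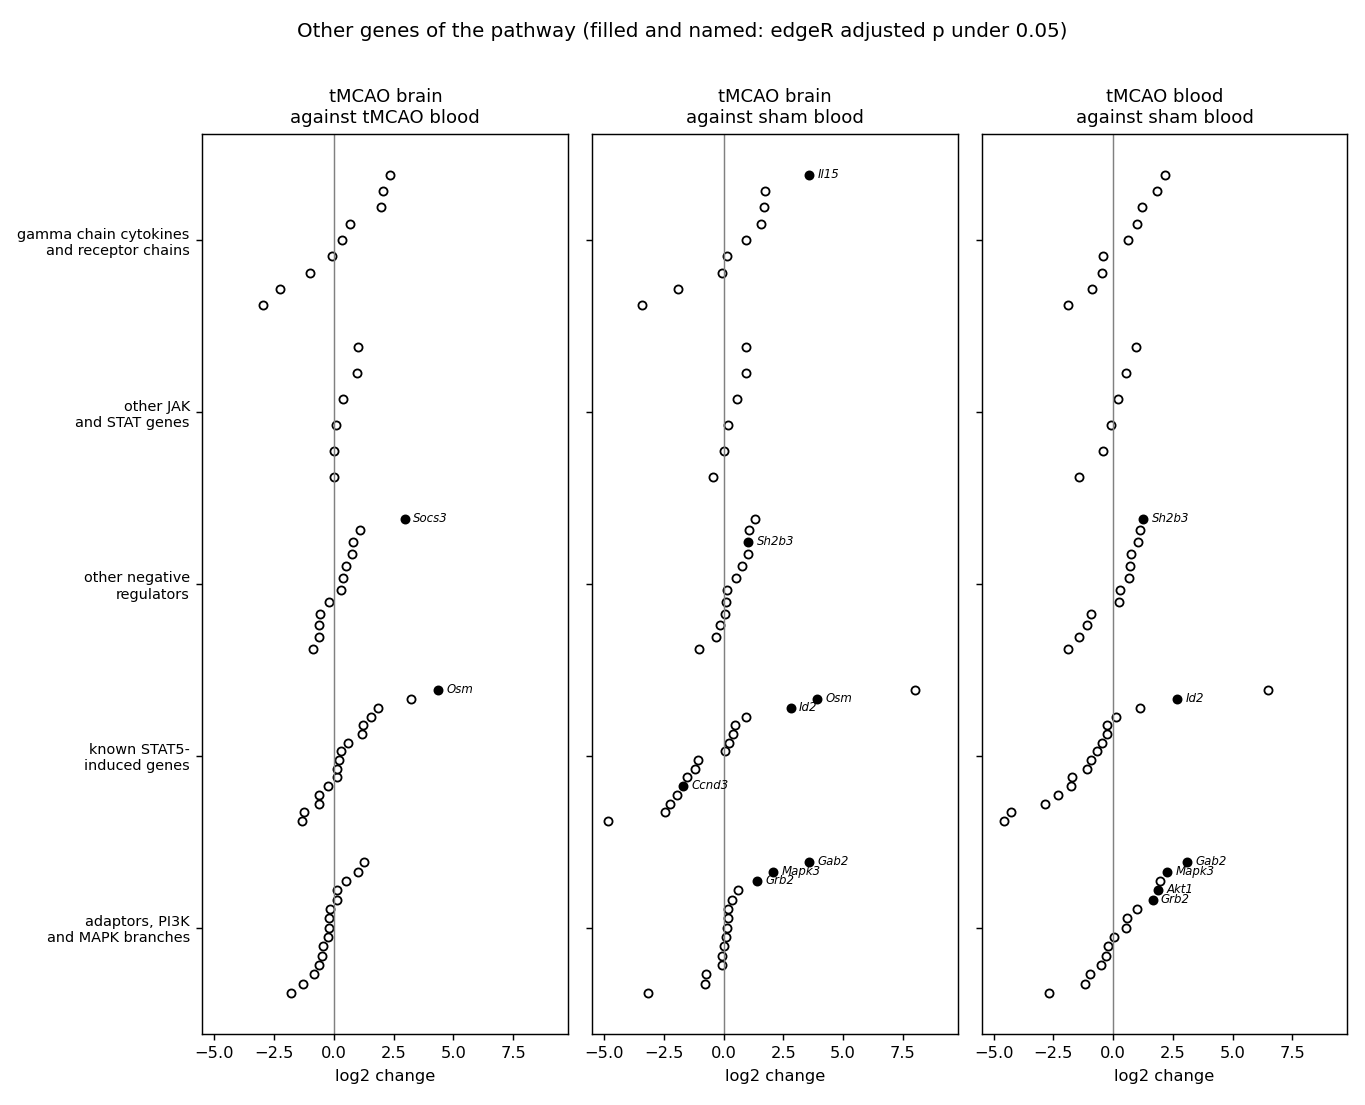
Fitted log2 change (horizontal axis) of each tested gene of the 5 other pathway lists in the 3 comparisons, sorted by size within a list (points), with genes that passed edgeR's test filled and named. The point at the far right of the comparisons with sham blood is Lif, which was listed at 0 in both sham libraries and was not called, so its fitted change of 8.01 in tMCAO brain is no measure of size.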

How the data were processed

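Messenger RNA of cells sorted as Tregs was measured in 6 bulk libraries. The labels' protocols name SMART-Seq ultralow input cDNA, Nextera XT tagmentation and paired-end reads from a NextSeq 500. The kits amplify by PCR and no molecular identifiers are given, so reads are not independent molecules, and any interval covers counting error only. What the authors deposited is a table of raw counts per gene, for which the submitters' processing notes name STAR, HTSeq 0.11.2 and GRCm38. Not given in the sources used here are the annotation, the strand setting and the handling of multiply mapped reads, so overlapping genes and close paralogs are uncertain.

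Libraries were grouped by title. Genes were filtered with filterByExpr (minimum count 10), normalised with TMM and compared in edgeR 4.0.16 (R 4.3.3, quasi-likelihood test) in 1 fit of all 6 libraries, with no covariates and 3 residual degrees of freedom. P-values were adjusted by Benjamini-Hochberg over the 16657 genes of a comparison, at 0.05. An SE is the size of the log2 change over the square root of F. CPM use TMM-adjusted library sizes, shares raw totals. Alternatives were DESeq2 size factors, scaling to 17 T cell identity genes, no filter, a stricter filter (5 CPM in 2 libraries), DESeq2 1.42.0, limma-voom (limma 3.58.1), only the 2 groups compared, a replicate block, and fits without libraries. Replicates differed beyond counting noise in every group (chi-square over degrees of freedom 28.1 to 245), so no file repeats another. Repeat libraries of 1 animal or pool could also differ beyond it. Of the symbols, 97.3% were in GENCODE M21 (GRCm38), the source of coordinates and exon lengths. The fit was also run on simulated counts built from 1 mean per gene over all libraries. These lack the differences in marker shares between libraries, so that run is no support for the results above.

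The members and lists were chosen with earlier results of these data known. Named were all members, up to 4 called genes per list by smallest adjusted p or else the 2 most abundant, Socs1 and Socs3, and the 5 genes nearest to Il2ra and to Cish. Il2 and Lif were added after their values were seen. Some genes of the pathway lists are not reported here, and the counts leave them out.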

Additional observations from a re-analysis of the deposited data

How the results depend on the processing

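All 27 member changes (9 genes, 3 comparisons) kept direction and call with DESeq2 size factors, a stricter filter and limma-voom. Where values of 3 comparisons follow each other below, they are tMCAO brain against tMCAO blood, tMCAO brain against sham blood and tMCAO blood against sham blood. Members called were 0, 1 and 2, and became 1, 5 and 5 without a filter, 1, 5 and 6 with DESeq2, 0, 2 and 3 with only the 2 groups compared, 1, 3 and 4 without library 1 of both tMCAO groups, and 0, 0 and 0 scaled to T cell identity genes. Leaving out 1 library gave 0 to 0, 0 to 1 and 0 to 2. All genes called were 816, 1772 and 1246. They became 3598, 4458 and 3611 without a filter, 3451, 4007 and 3804 with DESeq2, 26, 2752 and 1739 with 2 groups, 3609, 4979 and 3850 without both libraries 1, 1237 for the first with the stricter filter and 1446 for the first with limma-voom, which called 524 higher and 622 lower in the third, against 722 and 524. Leaving out 1 library gave 31 to 313, 0 to 2080 and 0 to 1240. The 0 came without sham library 1 or 2, and in the third also without tMCAO blood library 1, where 2490 to 3843 genes had an unadjusted p under 0.05. The cause was not tested. These fits have fewer samples. Tested were 31242 genes without a filter, 10987 with the stricter filter and 18181 without library 1 of both tMCAO groups. With DESeq2 and limma-voom there were 16657, as in the main fit.

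Scaled to T cell identity genes, 448 genes (414 higher, 34 lower), 9014 (8955 and 59) and 1416 (1413 and 3) were called, and the median of all genes moved by 1.08, 3.87 and 2.78 on the log2 scale. Signs turned, none past the threshold: in the first comparison Il2ra 1.12, Il2rb 0.60, Il2rg 0.74, Stat5a 0.76, Stat5b 1.21 and Socs2 0.92, in the second Il2ra 0.59, Il2rb 1.28, Il2rg 1.95, Jak1 2.99, Jak3 3.45, Stat5a 2.80, Stat5b 2.68, Cish 2.13, Socs2 2.68 and Ccnd3 1.95, and in the third Il2rb 0.67, Il2rg 1.21, Jak1 1.83, Jak3 0.64, Stat5a 2.04, Stat5b 1.47, Cish 0.41 and Socs2 1.76. With only the 2 groups compared, Jak1 was -0.013 in the first. Without library 1 of both tMCAO groups, Il2rg was 0.16 in the first and Jak3 0.0091 in the second. Leaving out 1 library turned some signs in the first comparison, with ranges of -1.59 to 1.47 for Il2ra, -3.42 to 1.35 for Il2rb, -0.53 to 0.21 for Il2rg, -0.063 to 0.18 for Jak1, -0.36 to 0.35 for Stat5b, -0.30 to 1.39 for Cish and -0.86 to 0.41 for Socs2, and in the second -0.61 to 0.028 for Jak3.

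The labels do not say that replicate numbers pair the libraries. Deviations from group means correlated at 0.304 between tMCAO brain and tMCAO blood, -0.03 between tMCAO brain and sham blood and -0.07 between tMCAO blood and sham blood. With the replicate block, members called were 1 (Jak3, adjusted p = 0.0465), 2 (Il2ra and Il2rg) and 3 (Cish, Il2ra and Jak3), and all genes called were 803, 1977 and 1318. The block left Il2rg in tMCAO blood at an adjusted p of 0.0552. Each member had at least 135 counts in every library.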
